A study of Drosophila melanogaster with 4 samples.

Results

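Small nucleolar RNAs (snoRNAs) were taken from the expression table as every entry whose name starts with snoRNA, which gave 280 entries of 15627 named genes. RNA had been sequenced from wing imaginal discs, the larval precursors of the fly's wings and thorax, of third-instar Drosophila melanogaster reared at 25 °C, with 1 library per genotype. The wild-type library came from the Act5C-GAL4 driver line (y1 w*; P{Act5C-GAL4}25FO1 over the CyO, y+ balancer), and the Polycomb RNAi library from larvae with y1 w*, the same driver insertion and UAS-dsRNA Polycomb, with no balancer named. GAL4, a yeast activator, is thus made from an actin promoter in both genotypes, and in the RNAi larvae it switches on a double-stranded RNA against Polycomb, a subunit of the repressive complex PRC1. The sources used here do not give the number of pooled larvae or their sex. All 6 wing disc markers examined (vg, nub, sd, ap, wg and Antp) were expressed, at 18.8 to 143.9 FPKM in wild-type discs and 14.2 to 95.3 FPKM in RNAi discs. The targeted gene Pc was listed at 14.6 FPKM in wild-type discs and 13.0 FPKM in RNAi discs, and reads of the gene and of the transgene were not separated in the table.

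SnoRNAs guide chemical modification of other RNAs in the nucleolus by base pairing with them. Box H/ACA snoRNAs direct the conversion of uridine to pseudouridine, and box C/D snoRNAs direct methylation of the ribose 2′-hydroxyl. A few, such as U3 and U14, act in the cleavage of the ribosomal RNA precursor. In flies most snoRNAs are released from introns of host genes, many of which encode ribosomal proteins, and some host genes of the Uhg group have no known protein product. Box C/D snoRNAs are as a rule shorter than box H/ACA snoRNAs. The fly names carry the class, the target RNA and the target position, so that Psi28S-1135a is copy a of the guides for the pseudouridine at position 1135 of 28S rRNA, and Me18S-A1576 guides methylation of the A at position 1576 of 18S rRNA.

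Values are FPKM as the authors deposited them, that is, fragments per kilobase of an RNA, scaled to the library's mapped fragments. Each genotype has a single library here, so the differences below compare a pair of libraries, have no replicate error and carry no p-value, and neither library's depth is known. FPKM of short RNAs moves in large steps. The 186 member values above 0.01 FPKM had a minimum of 1.89 FPKM, and 8 of them (4.30%) lay below 10 FPKM, against 46.8% of 23670 such values over all named genes. An entry at exactly 0 need not mean that the RNA was absent from the discs. RNAs that every cell uses, such as the signal recognition particle RNA 7SLRNA:CR32864 and both U3 entries named as snoRNAs, were also listed at 0 in both libraries. Why they were listed at 0 was not tested. Entries at exactly 0 are therefore only said to be listed at 0.

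Whether an snoRNA was seen at all varied with its name class. In all, 77 members (27.5%) were listed above 0 in both libraries, 15 (5.36%) in wild type alone, 19 (6.79%) in Polycomb RNAi alone and 169 (60.4%) in neither. Over all named genes the shares were 70.0% in both, 3.33% in wild type alone, 8.95% in Polycomb RNAi alone and 17.7% in neither. These shares count the entries at 0 in both libraries, which were far more frequent among the members. Of the 111 members above 0 in at least 1 library, 19 were seen in Polycomb RNAi alone and 15 in wild type alone. Of the 12855 such named genes, 1398 and 520 were, so both 1-library shares were then larger for the members. Among the 109 Psi names, the pseudouridylation guides, 82 were above 0 in at least 1 library and 57 in both. Among the 100 Me names, the methylation guides, only 4 were above 0 in any library and 3 in both. The 71 other names lay between, with 25 above 0 in at least 1 library and 17 in both. For comparison, 15 of 235 microRNA (mir-) entries were above 0 in at least 1 library, as were 8 of 25 small nuclear RNA entries.

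**Figure D1:**
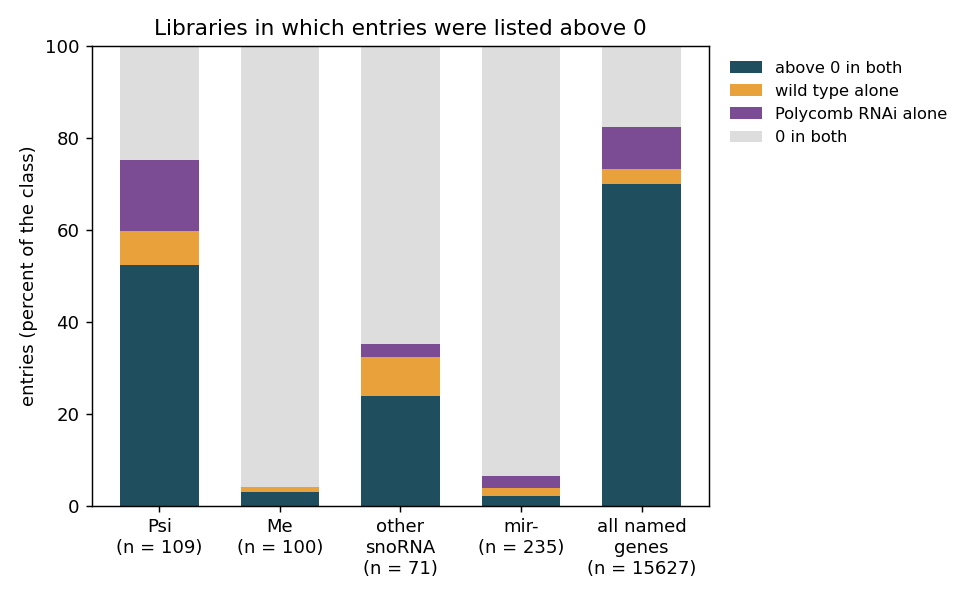
Percent of entries (vertical axis) listed above 0 in both libraries, in wild type alone, in Polycomb RNAi alone or in neither, for the 3 classes of snoRNA names, for microRNA entries and for all named genes. Psi names were mostly above 0 in both libraries, whereas 96 of 100 Me names were at 0 in both.

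The same split appeared in names that carry no target position. All 5 orphan box H/ACA entries (Or-aca), which have no assigned target, were above 0 in at least 1 library, although Or-aca2 was listed at values so far below 0.01 FPKM that it is in effect 0. Only 1 of 13 orphan box C/D entries, Or-CD2, was above 0, at 245.8 FPKM in wild-type discs and 192.6 FPKM in RNAi discs. None of the 17 entries with U or snR names was above 0 in either library, and these included the box C/D snoRNAs U3 and U14, which act in cleavage of the rRNA precursor, as well as U27, U29, U31, U49, U76 and snR38. Taken by the box that the name implies, 87 of 114 H/ACA entries (76.3%) and 5 of 130 C/D entries (3.85%) were above 0 in at least 1 library. Of the 27 entries named after a host gene, 16 were above 0 in at least 1 library and 9 in both, and of the remaining 9 entries, named by a number, letter or position, 3 were above 0, in both libraries each.

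Only 4 Me names were above 0. Me18S-A1576 was the highest, at 330.2 FPKM in wild-type discs and 1110 FPKM in RNAi discs. It lies within the host gene Uhg2, listed at 68.1 and 81.7 FPKM in the same order. Me28S-U1688 was 107.5 FPKM in wild-type discs and 204.0 FPKM in RNAi discs, and MeU5-C46, named for the spliceosomal U5 RNA, was 18.3 and 13.6 FPKM. Me28S-U1230 was 42.1 FPKM in wild-type discs and at 0 in RNAi discs. The other 96 Me names, with targets in rRNA and in U2, U5 and U6 RNA, were at 0 in both libraries. All 38 Me entries that belong to 16 families of copies were among them.

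A smaller share of Psi names was seen for 18S than for 28S rRNA, and most of the unseen names for 18S belong to 2 large families of copies. Among 63 entries for 28S, 55 (87.3%) were above 0 in at least 1 library and 41 in both. For 18S the numbers were 27 of 46 (58.7%) in at least 1 library and 16 in both. Of the 46 entries for 18S, 18 belong to Psi18S-525 and Psi18S-640, of which 3 copies were above 0 in any library. Without these families, a choice made after seeing the data, 24 of 28 entries for 18S (85.7%) were above 0 in at least 1 library and 16 (57.1%) in both, against 65.1% in both for 28S. Along both rRNAs, the Psi names at 0 in both libraries numbered 19 for 18S and 8 for 28S, and the Me names above 0 numbered 1 and 2.

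**Figure D2:**
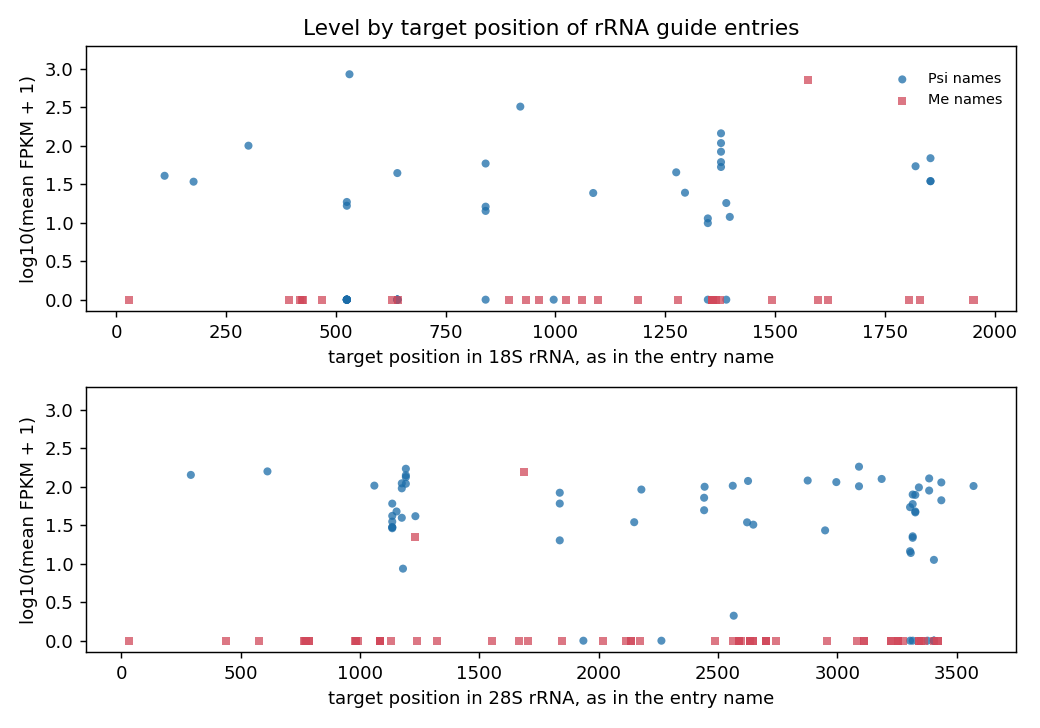
Level of each guide, as log10 of the mean FPKM of both libraries plus 1 (vertical axis), against the target position given in its name (horizontal axis) for 18S rRNA (top) and 28S rRNA (bottom). The Psi names above 0 lie mostly between 1 and 2.5 on this scale along both rRNAs, 19 Psi names for 18S and 8 for 28S lie at 0, and Me names lie at 0 apart from 1 entry for 18S and 2 for 28S.

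Among entries above 0 in both libraries, Psi18S-531, a pseudouridine guide, had the highest mean level, at 935.6 FPKM in wild-type discs and 771.0 FPKM in RNAi discs. Psi18S-920, within the ribosomal protein gene RpL10Ab, was 193.3 FPKM in wild-type discs and 453.1 FPKM in RNAi discs. Psi28S-3091a was 329.0 and 35.6 FPKM, and Psi28S-1192c 116.4 and 226.2 FPKM. Psi18S-531 and Psi28S-1192c were thus within 2-fold, whereas Psi18S-920 was more than 2-fold higher and Psi28S-3091a more than 2-fold lower in RNAi discs. Among the other names, CG43051-a was 194.8 FPKM in wild-type discs and 183.3 FPKM in RNAi discs, and Or-aca1, within RpS16, was 240.7 and 99.5 FPKM. Or-aca5, within Uhg4, was 76.4 and 118.3 FPKM. The 10 highest entries held 39.5% of the summed snoRNA FPKM in wild-type discs and 60.7% in RNAi discs.

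A single entry, nop5-x16-a, set the snoRNA total of the Polycomb RNAi library. Its name joins 2 genes, nop5, a box C/D core protein, and x16, a splicing factor. It was listed at 0 in wild type and at 4737 FPKM in Polycomb RNAi, which was 34.7% of the snoRNA total there. Summed over all members, FPKM was 7599 in wild-type and 13638 in RNAi discs, a ratio of 1.79, but without nop5-x16-a the sums were 7599 and 8900 FPKM, a ratio of 1.17. The Psi names alone summed to 5961 FPKM in wild-type discs and 6651 FPKM in RNAi discs, a ratio of 1.12. The Me names summed to 498.2 and 1328 FPKM, most of it from Me18S-A1576 and Me28S-U1688. Members made up 0.829% of the table's summed FPKM in wild-type discs and 1.38% in RNAi discs. The members without nop5-x16-a made up 0.903% in RNAi discs.

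Between the libraries, snoRNA values were widely scattered in both directions around a median near 0. The difference was taken as log2((Polycomb RNAi FPKM + 1)/(wild-type FPKM + 1)), a scale that understates the change of low entries. Of the members, 110 reached 1 FPKM in either library. A member at 0 in the other library had to differ, so the 76 of these that were above 0 in both are described. Of these 76, 16 (21.1%) were higher in RNAi discs by at least 2-fold and 13 (17.1%) lower by as much, against 3.12% and 2.71% of the 8633 genes that reached 1 FPKM in either library and were above 0 in both. Among all 6081 genes at 10 FPKM or more in both libraries, the range where the members mostly lay, 0.691% were at least 2-fold higher and 0.872% at least 2-fold lower, and 15 and 13 of the 73 members at that level were. FPKM is per kilobase, so a short RNA has fewer reads than a long one at the same FPKM. The 6081 genes are thus not matched to the members in read number. The median difference of the 76 members was -0.04 and the middle 50% ran from -0.63 to 0.92, whereas for those 8633 genes the median was -0.0048 and the middle 50% ran from -0.13 to 0.13. Counting also the 1-library entries, 35 of the 110 were at least 2-fold higher, against a background of 4.41%, and 28 at least 2-fold lower, against 3.20%. With the copies of each family summed to 1 value, 11 of the 57 values above 0 in both libraries were at least 2-fold higher and 6 at least 2-fold lower. The rank correlation of levels between the libraries was 0.596 over the 76 members and 0.969 over the 6081 genes, as a description across entries that share libraries.

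**Figure D3:**
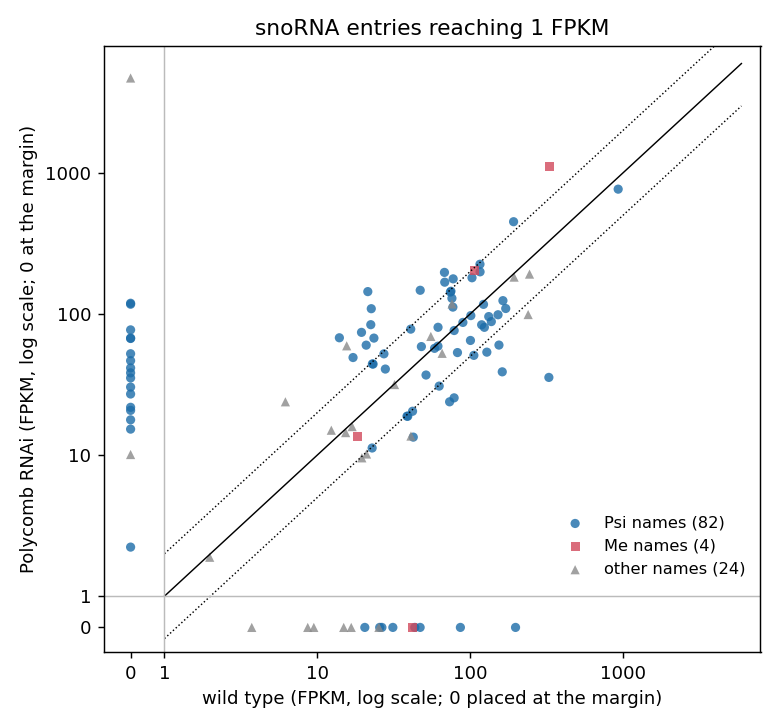
FPKM in Polycomb RNAi (vertical, log axis) against wild type (horizontal, log axis) for the 110 snoRNA entries reaching 1 FPKM, 1 point per entry, with entries listed at 0 placed at the margins. The solid line marks equal values and the dotted lines 2-fold, and points fall well outside both dotted lines in either direction.

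The ratios of some members lay near those of small whole read numbers. For 1159 genes of the table that lay at 0.005 to 0.3 FPKM in each library, the commonest quotient of RNAi over wild type was 0.955, with 228 genes (19.7%) within 5% of it. That is the ratio expected if each of these genes had the same read number in both libraries. Of the 76 members, 11 were within 5% of 0.955, 8 within 5% of 1.91, the ratio of 2 reads to 1, and 8 within 5% of 0.477, that of 1 read to 2. A further 4 were within 5% of 2.86 and 4 within 5% of 0.318, the ratios of 3 reads to 1 and 1 read to 3. Among 5818 other genes at 10 to 500 FPKM in both libraries, 33.1% were near 0.955, 0.361% near 1.91 and 0.189% near 0.477. Few genes at 10 FPKM or more in both libraries were 2-fold apart at all (0.691% higher and 0.872% lower). This comparison therefore cannot show whether members favoured these ratios, and members near other ratios were not counted. The read numbers themselves are not known, and their part in the differences was not tested.

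Among entries seen in both libraries, the 2 largest differences towards lower values in Polycomb RNAi belonged to a pair of copies within 1 host gene. Psi28S-3091a was 329.0 FPKM in wild-type discs and 35.6 FPKM in RNAi discs, a log2 difference of -3.17, and Psi28S-3091b was 162.9 and 39.0 FPKM, a log2 difference of -2.03. Both lie within kra, listed in the table as exba, which was 627.5 and 667.5 FPKM. The same gene holds Psi28S-2442a, at 73.7 FPKM in wild-type discs and 23.9 FPKM in RNAi discs, but also Psi28S-3385b, at 77.7 and 178.2 FPKM, which was more than 2-fold higher. All 8 Psi entries within kra were above 0 in both libraries, and 3 were at least 2-fold lower and 1 at least 2-fold higher. The other leading entries lower in Polycomb RNAi were Psi28S-1135a, at 42.6 and 13.4 FPKM, and Psi18S-1377b, at 78.8 and 25.5 FPKM.

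Towards higher values in Polycomb RNAi, Psi28S-1837c had the largest log2 difference among entries seen in both libraries, at 2.70. It was 21.5 FPKM in wild-type discs and 144.7 FPKM in RNAi discs. Psi28S-3436b, within RpL17, was 22.6 and 109.4 FPKM, and Psi28S-1135e, within RpS5a, was 14.0 and 68.0 FPKM. Psi28S-3327b, within RpS4, was 19.5 and 74.3 FPKM, and the orphan Or-aca3, within RpL4, was 15.6 and 59.7 FPKM. The wild-type values of these 5 entries, those with the largest log2 differences in this direction, ranged from 14.0 to 22.6 FPKM. They lay below the wild-type median of 67.0 FPKM over the 76 members, but choosing entries by a large ratio favours a low value on 1 side. Likewise, the 5 entries with the largest differences in the other direction had RNAi values of 13.4 to 39.0 FPKM. The RNAi median over the 76 members was 67.9 FPKM.

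Entries listed in 1 library alone were mostly of moderate level. The 19 seen in Polycomb RNAi alone ran from 2.23 to 4737 FPKM with a median of 38.4 FPKM, and the 15 seen in wild type alone from 3.73 to 199.0 FPKM with a median of 25.7 FPKM. After nop5-x16-a, the highest in Polycomb RNAi alone were Psi28S-1837a at 119.6 FPKM, Psi28S-3316a at 117.7 FPKM, Psi28S-1175b at 77.4 FPKM and Psi18S-1854a at 67.7 FPKM. In wild type alone, the highest were Psi28S-2444 at 199.0 FPKM, Psi18S-640d at 86.7 FPKM, Psi18S-1295 at 47.2 FPKM, Psi28S-3316c at 43.6 FPKM and Me28S-U1230 at 42.1 FPKM. Of the Psi names, 17 were seen in Polycomb RNAi alone and 8 in wild type alone. With the copies of each family summed, 9 of 190 values over all classes were in Polycomb RNAi alone and 12 in wild type alone. Copies of the same family fell on both sides, as with Psi28S-3316a and Psi28S-3316c, so the family total differed less than its copies.

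Copies of a family share a target position and can share reads, so they are not independent. The sources used here do not say how reads of near-identical copies were divided. The 19 Psi families with copies held 74 entries. In 8 families every copy was above 0 in both libraries, and in the other 11 the copies were mixed. Psi28S-1135 had 6 copies, all above 0 in both, which ran from 14.0 to 42.6 FPKM in wild-type discs and from 13.4 to 78.4 FPKM in RNAi discs. Their log2 differences ran from -1.60 to 2.21, while the family sum was 203.4 FPKM in wild-type discs and 238.5 FPKM in RNAi discs, a log2 difference of 0.23. The 4 copies of Psi28S-1192 ran from 68.1 to 171.7 FPKM in wild-type discs and from 109.8 to 226.2 FPKM in RNAi discs, with sums of 430.8 and 677.5 FPKM. In this family 3 copies were higher in Polycomb RNAi and Psi28S-1192a was lower, at 171.7 and 109.8 FPKM.

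Psi18S-1377 was the only Psi family of at least 3 copies in which every copy was above 0 in both libraries and lower in RNAi discs. Its 5 copies, all within RpS7, ran from 61.8 to 164.6 FPKM in wild-type discs and from 25.5 to 124.8 FPKM in RNAi discs, with sums of 561.0 and 335.2 FPKM and a log2 difference of -0.74 for the sum. Psi18S-1377e, at 61.8 and 59.3 FPKM, was nearly equal between the libraries. Psi28S-3327 had 3 copies, at 19.5 to 78.9 FPKM in wild-type discs and 67.7 to 76.6 FPKM in RNAi discs. Psi28S-1837 summed to 21.5 FPKM in wild type, from 1 copy, and to 302.6 FPKM in Polycomb RNAi, from all 3, while CG10576, the gene that holds them, was 456.3 and 404.3 FPKM. Psi28S-1175, within RpS16, summed to 152.6 and 335.2 FPKM, and Psi18S-1854 to 105.9 and 165.5 FPKM. The ranges of these families overlapped between the libraries, except for those of Psi28S-1837, and of Psi28S-1175 where the lowest copy in Polycomb RNAi lay just above the highest in wild type.

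The 2 largest Psi families were little seen. Of the 11 copies of Psi18S-525, Psi18S-525g was 31.3 FPKM in wild type alone, Psi18S-525i was 35.3 FPKM in Polycomb RNAi alone, and 9 were at 0 in both. Of the 7 copies of Psi18S-640, Psi18S-640d was above 0, in wild type alone. Psi28S-3405 had 1 of 4 copies above 0, at 20.5 FPKM in wild type, and Psi18S-1347 had 2 of 3, in Polycomb RNAi alone, with a highest value of 20.8 FPKM. Psi28S-3316 had 4 of 5 copies above 0, with a highest value of 106.2 FPKM in wild-type discs and 117.7 FPKM in RNAi discs. Psi18S-841 had 3 of 4, with a highest of 58.7 FPKM in wild-type discs and 57.3 FPKM in RNAi discs, and Psi28S-3305 had 2 of 3, with 48.1 and 58.9 FPKM. Every copy of the 5 Me families and the 3 other families with at least 3 copies was at 0 in both libraries; these were Me28S-G1083, Me18S-U1356, Me28S-A2589, Me28S-A2634, Me28S-G2703, Or-CD11, U29 and U31.

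**Figure D4:**
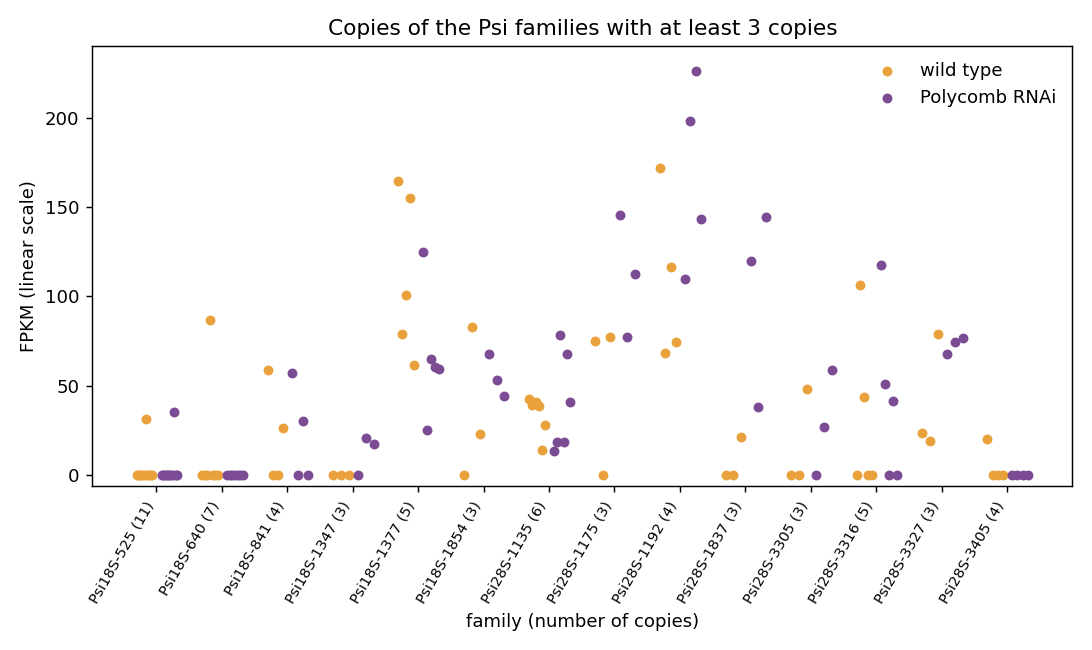
FPKM on a linear scale (vertical axis) of each copy in both libraries for the 14 Psi families with at least 3 copies (horizontal axis, number of copies in brackets), 1 point per copy and library. Psi18S-525 and Psi18S-640 lie at 0 but for 3 values, whereas the copies of Psi28S-1135, Psi28S-1192 and Psi18S-1377 are all above 0 and spread widely within each library.

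The genes that hold the snoRNAs were read from a RefSeq gene table of the Release 6 assembly, used for names and nesting only. Of the 280 entries, 250 (89.3%) matched a gene there by symbol or synonym, 226 of them lay within exactly 1 larger gene, 14 within more than 1 and 10 within none. Some matched a newer name that gives a class and target. Prp8-a, bur-a, dmt-a, tra2-a, gp210-a and skd-a match names that begin with scaRNA:Psi and name U1, U2, U5 or U6 RNA. MeU5-C46 is scaRNA:MeU5-C46 there, and the orphan Or-CD1 is Me18S-C1968. The classes used here follow the older names. For 225 entries the surrounding gene, 1 of 80 genes, also had values in the expression table. That table of genes has no strand, and the RNA libraries are unstranded per the labels, so reads of an snoRNA and of overlapping host RNA cannot be told apart.

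Every Psi entry within a ribosomal protein gene was seen. All 40 such entries, in 13 genes at 1400 to 6142 FPKM in wild type, were above 0 in at least 1 library and 36 were above 0 in both. Of the 61 Psi entries within 14 other genes, at 0.237 to 850.3 FPKM in wild type, 36 were above 0 in at least 1 library and 15 in both. Of the 25 at 0 in both libraries, 14 lay in Arpc2, which holds copies of Psi18S-525 and Psi18S-640, 4 in Hrb98DE and 4 in dom. Full detection was not particular to ribosomal protein genes. All 8 Psi entries in kra, all 4 in CG10576 and all 3 in Sf3b3 were above 0 in at least 1 library. Of the 17 Me entries within ribosomal protein genes, none was above 0 in either library, and 2 of the 48 Me entries within other genes were. The 6 genes that hold both Psi and Me entries, namely Nop60B, RpL3, RpS16, Sf3b3 (CG13900 in the table), Uhg4 and dom, showed the same split. Within them 17 of 21 Psi entries and 0 of 16 Me entries were above 0 in at least 1 library. The Uhg genes held 42 entries, 26 of them Me names, and 3 of the 42 were above 0 in at least 1 library. Uhg1 alone held 16 entries, all at 0, while the gene itself was 48.6 FPKM in wild-type discs and 52.3 FPKM in RNAi discs.

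Ribosomal protein genes differed little between the libraries while the snoRNAs within them were scattered. RpS5a, which holds 14 Psi entries of the families Psi28S-1135, Psi28S-1192 and Psi18S-1854 and 1 further name, was 3620 FPKM in wild-type discs and 3420 FPKM in RNAi discs, a log2 difference of -0.08. Its 13 entries seen in both libraries ran from -1.60 to 2.21, with 2 at least 2-fold higher and 2 at least 2-fold lower. RpS7, at 3690 and 3544 FPKM, held 7 Psi entries with log2 differences from -1.59 to 1.29. The 13 ribosomal protein genes with Psi entries had log2 differences from -0.08 to 0.26. Arpc2, listed in the table as Arc-p34 at 100.6 and 97.3 FPKM, held 17 Psi entries of which 3 were above 0 in any library. In dom, at 75.3 and 73.6 FPKM, 8 of 12 Psi entries were above 0. Over the 65 members seen in both libraries with a single host, in 30 genes, the rank correlation of the member's log2 difference with that of its host was -0.0449, and that of their wild-type levels was 0.286. Members of a host share it, so these are descriptions across entries.

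Protein genes of the snoRNA particles were all slightly lower in Polycomb RNAi, and none reached 2-fold. For the box C/D core, the methyltransferase gene Fib was 157.8 FPKM in wild-type discs and 132.8 FPKM in RNAi discs, nop5 was 142.5 and 125.9 FPKM, Nop56 was 180.6 and 145.4 FPKM, and hoip, the fly gene of the small RNA-binding core protein, was 310.2 and 241.5 FPKM. For the box H/ACA core, the pseudouridine synthase gene Nop60B was 214.2 and 181.7 FPKM, the core protein gene NHP2 178.8 and 143.1 FPKM and the Nop10 gene CG7637 421.6 and 349.8 FPKM. The Gar1 gene CG4038 had a log2 difference of -0.38, and these 8 genes ran from -0.38 to -0.18. The assembly genes Nopp140, a nucleolar chaperone, pont and rept, a pair of ATPases, had log2 differences of -0.21, -0.09 and -0.09.

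Genes of rRNA synthesis and nucleolar processing shared this direction. The RNA polymerase I subunit genes RpI1, at 32.0 FPKM in wild-type discs and 26.6 FPKM in RNAi discs, RpI135, at 22.3 and 18.8 FPKM, and RpI12, at 17.1 and 14.0 FPKM, were each lower, as was the polymerase I initiation factor gene Tif-IA, at 92.3 and 79.5 FPKM. The other 7, bys, Nnp-1, pit, ns1, ns2, nclb and mbm, had log2 differences from -0.37 to -0.10. Thus 22 of the 22 genes found for these lists were lower, with a median of -0.24 and a range from -0.38 to -0.09, and 0 of 22 were at least 2-fold apart in either direction. Of all 8800 genes tested, 50.6% were lower by any amount, and the middle 50% ran from -0.14 to 0.14. The lists were set by role but with earlier results of these data known, so the count of 22 is a description. Of the 7 Uhg host genes, 5 were lower, the most Uhg5, at 31.1 and 18.4 FPKM, and Uhg1 and Uhg2, at 68.1 and 81.7 FPKM for the latter, were higher.

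**Figure D5:**
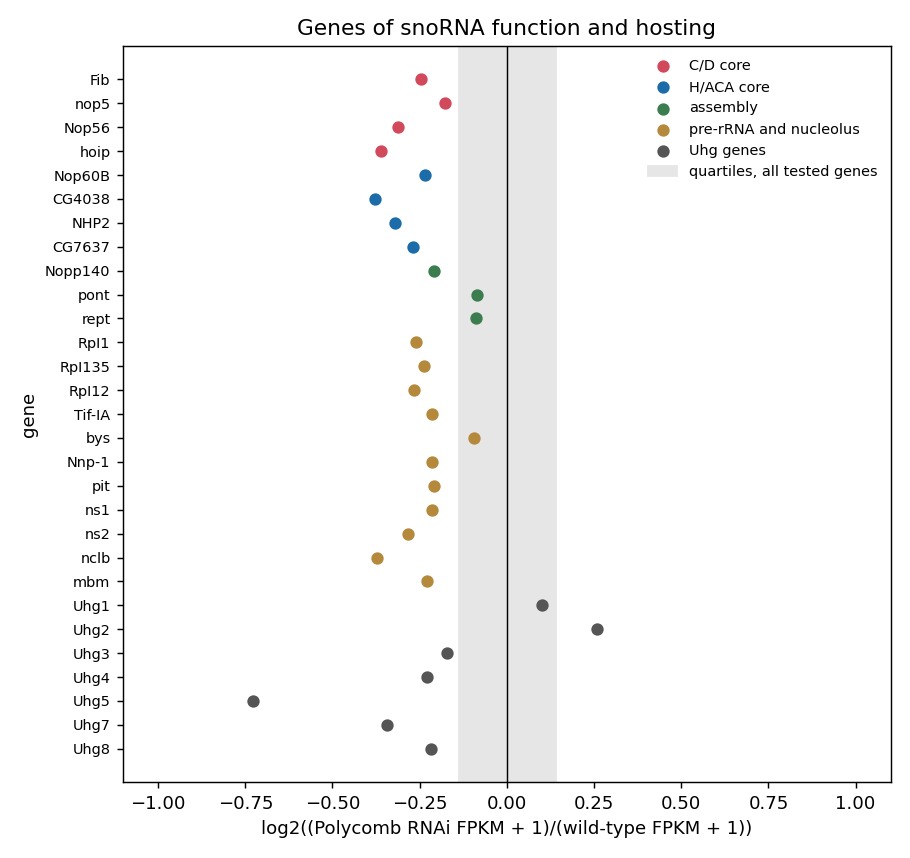
Log2 difference between the Polycomb RNAi and wild-type libraries (horizontal axis) of each gene of the snoRNA protein, assembly, nucleolar and Uhg lists (vertical axis), 1 point per gene, with the quartiles of all tested genes shaded. The 22 protein genes lie left of 0, between -0.38 and -0.09, and the Uhg genes between -0.73 and 0.26.

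Markers of other cell types also differed between these libraries. The 4 haemocyte markers found were all at least 2-fold higher in Polycomb RNAi (summed 20.5 FPKM in wild-type discs and 53.6 FPKM in RNAi discs), as were 3 of 4 muscle markers (20.7 and 57.0 FPKM) and all 4 salivary gland markers (42.5 and 138.1 FPKM). Lower by at least 2-fold were 1 of 4 fat body markers (3529 and 1975 FPKM), both tracheal markers (240.7 and 29.8 FPKM) and 2 of 6 wing disc markers (460.1 and 299.9 FPKM). Most of the tracheal sum and of its fall came from obst-A, at 220.0 and 20.2 FPKM. The other tracheal marker, trh, was 20.65 and 9.65 FPKM, a log2 difference of -1.02. Scaling the libraries to 1 common sum, which moves differences by about -0.10, left 2 of 4 haemocyte markers at least 2-fold higher, with Hml and eater at log2 differences of 0.94 each, and put 3 of 6 wing disc markers at least 2-fold lower, with nub added at -1.02. The sums were 916814 FPKM in wild-type discs and 985157 FPKM in RNAi discs. A single entry, CG41421, was 86280 and 161100 FPKM, a larger rise than that of the sums, so this scaling rests on 1 entry. No marker found was at 0 in either library, and the part of these cells in the snoRNA and nucleolar values was not tested. In bulk tissue, fewer cells of a type and less RNA per cell cannot be told apart.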

How the data were processed

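The authors deposited FPKM values for the wild-type and Polycomb RNAi libraries, with no counts. Per the submitters' processing notes, the tools were TopHat2 2.0.11, Bowtie 1.0.0, Cufflinks, CASAVA 1.4 and SICER and the build was dm3; the sources used here do not give the tool behind each file, the annotation or any filter on fragment or transcript length. A row that names no gene, only a dash, was dropped (0.127% of summed wild-type FPKM and 0.206% of that from RNAi discs). The H4K20me1 peak list was not used here. Classes, families and targets were read from entry names. Differences used a pseudocount of 1, a minimum of 1 FPKM in either library and a 2-fold threshold. Host genes came from RefSeq gene positions of Release 6, matched by symbol or unique synonym; CG13849 and NimC1 were not found under those symbols. Calculations used Python 3.11.15 with pandas 2.3.3 and were tested on simulated data. With 1 library per genotype no test was made. The members and lists were chosen with earlier results of these data known. Named entries were the 4 highest per class seen in both libraries, the 5 largest differences per direction, the 5 highest per direction at 0 in the other library, families of at least 3 copies and the listed protein and Uhg genes; any other entry was named after its values were seen. Other settings tried were pseudocounts, minima, scalings and summed copies.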

Additional observations from a re-analysis of the deposited data

How the results depend on the processing

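The numbers of members at least 2-fold apart stayed within 1.5 times under pseudocounts of 0.1 and 5, no minimum, a minimum of 5 FPKM, scaling to the same sum and median centring, but summing copies of a family gave 20 higher and 18 lower of 78 values in place of 35 and 28 of 110. Among entries seen in both libraries (a set added after seeing the data), summed copies gave 6 lower in place of 13. The median difference of the 110 was -0.0258 with a pseudocount of 5, 0.00 without a minimum, -0.13 with the same sum, -0.0348 with median centring and 0.0112 with copies summed. That of the 76 was -0.0476 with a pseudocount of 0.1, -0.14 with the same sum and 0.17 with copies summed, so neither median has a stable sign. With copies summed, entries seen in Polycomb RNAi alone numbered 9 in place of 19, and those in wild type alone 12 in place of 15. The larger number thus changed sides. The Psi share seen in both libraries was then 70.4% in place of 52.3%. The ratio of summed FPKM was 1.17 without nop5-x16-a and 1.67 with the same sum. All same-sum values rest on the entry CG41421, which rose by more than the sums did. None of the 59 named snoRNA, protein and Uhg genes crossed 2-fold or changed direction while called; of the cell type markers, which were tried with the same sum alone, Hml, eater and nub crossed 2-fold. No paired analysis was possible because each genotype has 1 library, and for the same reason no library could be left out.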
